A study of Mus musculus with 2 samples.

Results

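Alveolar macrophages were described in lungs of BALB/c mice that carried 4T1 tumours, a BALB/c mammary carcinoma line, in the mammary fat pad. Mice had received either the S100A4-11 antibody or IgG, and lungs were taken on day 14 after the tumour cells were implanted. Each group had 1 single-cell library (10x Genomics 5' chemistry). The number of animals behind a library, their age and the antibody dose were not given in the sources used here. A barcode with at least 200 genes and at most 15% mitochondrial UMIs was called an alveolar macrophage by its own transcripts. It had UMIs of at least 3 of the 7 genes Plet1, Atp6v0d2, Krt79, Ear1, Marco, Cidec and Fabp1 and at least 1 UMI of Ptprc, Mrc1 or Siglecf. It had no UMI of Cdh5, Cd79a or Cd3e, and S100a8 and S100a9 made up under 1% of its UMIs. This gave 425 cells in the S100A4-11 library and 663 in the IgG library, 1088 of 26650 kept barcodes and of 26917 deposited ones. Cells with at least 4 of 11 mitotic genes (Mki67, Top2a and others) were called cycling and are described apart: 11 cells in the S100A4-11 library and 30 in the IgG library.

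Alveolar macrophages are the resident phagocytes of the airspace. They descend largely from fetal monocytes, renew themselves by division, and depend on GM-CSF and TGF-beta signals that act through the nuclear receptor PPAR-gamma. They take up and break down surfactant, so lipid uptake, storage and cholesterol export genes are part of their normal programme, and they are among the first cells to release chemokines when the airspace is disturbed.

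With 1 library a group, no difference below has a replicate check and none was tested. Values in parentheses are exact 95% counting intervals (Poisson for levels, binomial for shares, conditional binomial for ratios) and cover counting error only. Levels are CPM, the UMIs of a gene per 1000000 UMIs of the class, and ratios are S100A4-11 over IgG. A gene is called higher or lower where its ratio was at least 1.5 in that direction and the interval excluded 1. A list is described by its members with at least 20 UMIs in both libraries together. Genes given for their role that neither the rule for named genes nor its examples picked were chosen after their values had been seen.

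The non-cycling cells, 414 and 633 in the S100A4-11 and IgG libraries, made up most of the alveolar macrophages, which held 3881546 and 5966895 UMIs in all. Their median depth was 8350 UMIs in the S100A4-11 library and 8512 UMIs in the IgG library, with 2686 and 2754 genes per cell. All other kept barcodes had medians of 3697 and 4016.5 UMIs. The libraries shared 264 kept barcodes, and 1 alveolar macrophage barcode occurred in both. RNA of other cells was not equal in the libraries: Scgb1a1, the main secretory product of airway club cells, was found in 1.69% (0.682 to 3.45) of non-cycling alveolar macrophages of the S100A4-11 library and in 40.8% (36.9 to 44.7) of those of the IgG library. In neutrophils, with median depths of 4066.5 and 4344 UMIs, these shares were 1.62% and 41.5%, close to those of alveolar macrophages. Whether this RNA was free or came with cells was not tested. Scgb1a1 is in no fixed list and was chosen after its values had been seen.

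Identity genes outside the rule marked these cells to unequal degrees. Chil3, which encodes a chitinase-like lectin, was found in 99.3% of non-cycling cells of the S100A4-11 library and in 98.7% of the IgG library, against 4.58% and 4.83% of all other barcodes. Ear2, an eosinophil-associated ribonuclease, was found in 97.8% and 98.1% of the cells in the S100A4-11 and IgG libraries. Itgax (CD11c) was found in 87.4% and 87.0%, and Pparg in 68.1% and 69.8%. Fabp4 was found in only 35.5% and 29.7%. Siglecf, which also serves in the rule, was found in 52.2% and 50.9%. Car4 did not set these cells apart. It stood at 453 and 395 CPM in the S100A4-11 and IgG libraries, against 338 and 376 CPM over all other barcodes. In the other class with most of it, Car4 stood at 1063 and 1055 CPM. Marco, a scavenger receptor often used as a marker, was found in only 5.56% and 8.53% of the cells, at 28.5 CPM (23.3 to 34.4) in the S100A4-11 library and 36 CPM (31.2 to 41.3) in the IgG library. At the marker minimum, 56 of 425 alveolar macrophages of the S100A4-11 library and 48 of 663 of the IgG library had exactly 3 markers. Chil3 was found in 96.4% and 95.8% of them. Of barcodes that met the other conditions, 16 and 23 had exactly 2 markers, with Chil3 in 56.3% and 65.2%. The rule also left out 66 barcodes of the S100A4-11 library and 134 of the IgG library for Cdh5, Cd79a or Cd3e, and 17 and 38 for S100a8 and S100a9.

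**Figure D1:**
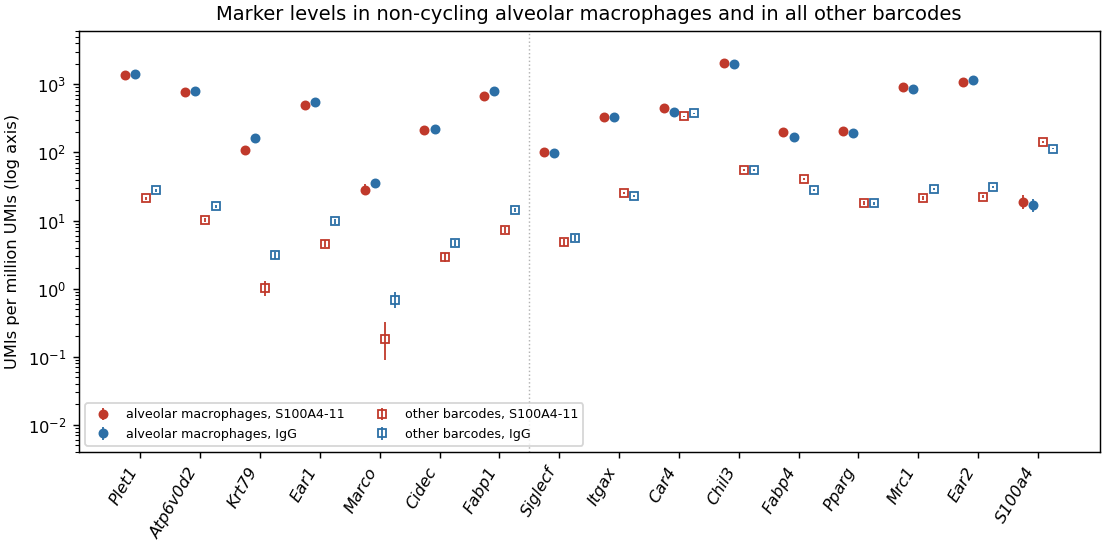
Levels (CPM, log axis) of the 7 rule markers (left of the dotted line), 8 identity genes and S100a4. They are shown for non-cycling alveolar macrophages (filled circles) and all other kept barcodes (open squares) of the S100A4-11 and IgG libraries. Bars are exact 95% counting intervals. Of the 8 identity genes, Siglecf and Mrc1 also serve in the rule. Plet1 stood at 1375 and 1408 CPM in alveolar macrophages of the S100A4-11 and IgG libraries and at 21.3 and 27.6 CPM elsewhere, whereas S100a4 was lower in alveolar macrophages than elsewhere.

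A set of 27 genes stood at 100 CPM or more and at least 5-fold above each of 9 other classes cut by markers in both libraries, 21 of them outside the rule. As the cells were picked by correlated genes, this is a description of the class. It included genes of lipid handling, such as Abcg1, a cholesterol exporter, at 965 and 991 CPM in the S100A4-11 and IgG libraries, and Olr1, a receptor for oxidised lipoprotein, at 997 and 1033 CPM. Acaa1b, a peroxisomal thiolase, stood at 285 and 330 CPM, and Lpin1, a phosphatidate phosphatase, at 233 and 276 CPM. Il18, an interleukin-1 family cytokine, stood at 641 and 663 CPM, and F7, which encodes coagulation factor VII, at 271 and 268 CPM. Neuronal names were among them too. Kcnip4, a potassium channel-interacting protein, reached 2439.5 CPM in the S100A4-11 library and 2287 CPM in the IgG library, against at most 42.3 and 111 CPM in any other class. Htr2c, a serotonin receptor, stood at 108 CPM in both libraries, with at most 2.26 and 4.35 CPM in any other class. The levels of these genes were close in the libraries, with Krt79 the widest apart.

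Alveolar macrophages made up a smaller share of the S100A4-11 library. They were 3.44% (3.12 to 3.77) of kept barcodes in the S100A4-11 library and 4.64% (4.30 to 5.0) in the IgG library, a ratio of 0.741 (0.654 to 0.838). Among barcodes with a UMI of Ptprc (CD45) they were 5.63% and 8.24%, a ratio of 0.683 (0.600 to 0.777). A share depends on all other cells and on how well each type survives dissociation, so fewer alveolar macrophages and more of other cells cannot be told apart.

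Within non-cycling cells most genes stood at the same level in both libraries. Of 7416 genes with at least 100 UMIs, 42 (0.566%) were at least 1.5-fold higher in the S100A4-11 library and 161 (2.17%) at least 1.5-fold lower. The log2 ratios had a 5th percentile of -0.39 and a 95th percentile of 0.32, with a median of -0.02. In all, 16 members in the S100A4-11 library and 40 in the IgG library also met the marker minimum of another class, of which 3 and 16 met that of fibroblasts. Without them, an alternative added after seeing the data, 42 genes were higher and 73 lower. At the lower limit of 20 UMIs, used for the lists, 1.12% of 10917 genes were higher and 5.04% lower, and 55.8% had a ratio below 1.

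**Figure D2:**
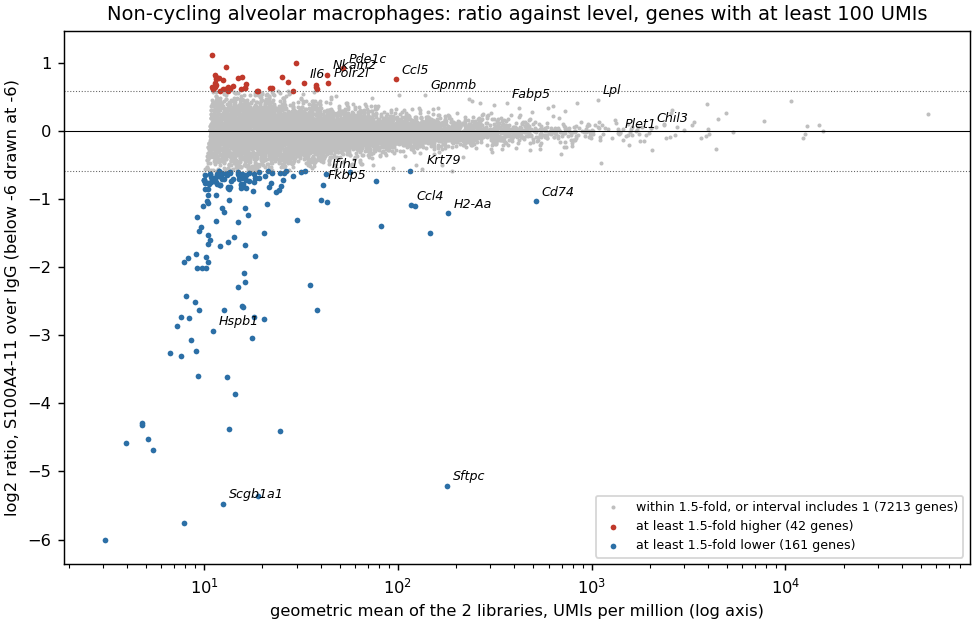
Log2 ratio of S100A4-11 over IgG against level (CPM, log axis) for the 7416 genes with at least 100 UMIs in non-cycling alveolar macrophages; red points are the 42 genes at least 1.5-fold higher and blue points the 161 at least 1.5-fold lower, with ratios below -6 drawn at -6. Points far below 0 include the airway and surfactant genes Scgb1a1 and Sftpc, while Chil3, Plet1 and Lpl lie inside the dotted 1.5-fold lines.

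The rule for named genes left out genes that another class holds at a far higher level. Of 2830 genes it admitted, 3 were higher and 2 lower. Pde1c (chromosome 6, 56069804 to 56569103, minus strand, GRCm38), a calmodulin-dependent cyclic nucleotide phosphodiesterase, had 71.4 CPM (63.1 to 80.6) in the S100A4-11 library and 37.8 CPM (32.9 to 43.2) in the IgG library, a ratio of 1.89 (1.57 to 2.27). It was found in 45.9% and 29.9% of the cells of the S100A4-11 and IgG libraries, and after thinning each cell to 2000 UMIs in 16.6% and 7.46%. Nkain2 (chromosome 10, 31689310 to 32890462, minus strand), a membrane protein that binds the sodium pump, had 57.2 CPM (49.8 to 65.4) in the S100A4-11 library and 32.3 CPM (27.7 to 37.3) in the IgG library, a ratio of 1.77 (1.45 to 2.17). Polr2l (chromosome 7, 141471860 to 141475132, minus strand), a subunit shared by the nuclear RNA polymerases, had 55.6 CPM (48.3 to 63.7) in the S100A4-11 library and 34.0 CPM (29.4 to 39.2) in the IgG library, a ratio of 1.63 (1.33 to 2.0). The same 3 genes had ratios of 1.86, 1.77 and 1.44 over all other barcodes, so their difference between libraries was not particular to alveolar macrophages.

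Fkbp5 (chromosome 17, 28399094 to 28517527, minus strand), a glucocorticoid-induced co-chaperone of the glucocorticoid receptor, had 31.2 CPM (25.7 to 37.4) in the S100A4-11 library and 53.8 CPM (47.9 to 60.3) in the IgG library. It was 1.73-fold lower (1.39 to 2.16) in alveolar macrophages and 1.45-fold lower over all other barcodes, in the S100A4-11 library. Ifih1 (chromosome 2, 62595798 to 62646255, minus strand), which encodes the RNA sensor MDA5, had 34.4 CPM (28.7 to 40.9) in the S100A4-11 library and 53.1 CPM (47.3 to 59.5) in the IgG library, 1.55-fold lower (1.25 to 1.92). Its UMIs were uneven: the 5 cells with most held 41.4% of them in the S100A4-11 library and 39.6% in the IgG library. With every cell weighing the same its ratio was 0.750, short of 1.5-fold, and with at least 4 markers 0.685.

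Identity and growth factor genes differed little. Of 25 measured resident alveolar macrophage genes, 9 of which the cell rule uses, none was higher and none lower, and the list median was -0.02 on the log2 scale, beside -0.03 for all genes with at least 20 UMIs. Plet1 had 1375 CPM (1337 to 1413) in the S100A4-11 library and 1408 CPM (1377 to 1439) in the IgG library. Chil3 had 2057 CPM in the S100A4-11 library and 1995 CPM in the IgG library, a ratio of 1.03 (1.0 to 1.06). Ccl6, a chemokine made at high level by resting alveolar macrophages, had 5309 and 5396 CPM in the S100A4-11 and IgG libraries. These levels lie within a few percent of each other. Krt79, a keratin in the cell rule, had 109 CPM (98.7 to 120) in the S100A4-11 library and 162 CPM (151 to 172) in the IgG library, a ratio of 0.675 (0.599 to 0.760), just short of 1.5-fold. Over all other barcodes the Krt79 ratio was 0.332. Of 28 receptors and regulators of the lineage none was higher and none lower (median -0.01). The GM-CSF receptor chains Csf2rb and Csf2ra had 615 and 282 CPM in the S100A4-11 library and 567 and 253 CPM in the IgG library. Pparg had 204 CPM (190 to 219) in the S100A4-11 library and 196 CPM (184 to 207) in the IgG library. Tgfbr2, a TGF-beta receptor chain, had 246 and 253 CPM. The repressor genes Bhlhe41, with 77.6 and 59.2 CPM, and Id2, with 476 and 377 CPM, had ratios of 1.31 (1.12 to 1.54) and 1.26 (1.19 to 1.35), short of 1.5-fold.

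Lpl and Fabp5, of the lipid list, had ratios above 1 with intervals that excluded 1, short of 1.5-fold. Lpl (chromosome 8, 68880491 to 68907448, plus strand), lipoprotein lipase, had 1259 CPM (1223 to 1295) in the S100A4-11 library and 916 CPM (891 to 941) in the IgG library, a ratio of 1.37 (1.32 to 1.43), against 0.968 over all other barcodes. Fabp5, a fatty acid-binding protein, had 419 CPM (399 to 441) in the S100A4-11 library and 316 CPM (301 to 331) in the IgG library, a ratio of 1.33 (1.24 to 1.42). The opposite order held for other members: Plin2, which coats lipid droplets, had 1765 and 1963 CPM in the S100A4-11 and IgG libraries, and Fabp1 had 679 and 801 CPM, a ratio of 0.847 (0.807 to 0.890). The 34 measured lipid uptake, storage and export genes were split evenly, 17 above and 17 below a ratio of 1, with none past 1.5-fold and a median of -0.01. The 36 lysosomal genes had a median of 0.04 with none past 1.5-fold.

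Other metabolic lists lay close to 0 as well. None of 21 sterol synthesis genes, 19 fatty acid oxidation genes, 49 respiratory chain genes or 23 antioxidant and iron genes was past 1.5-fold, and the medians were 0.07, -0.06, 0.00 and 0.06. Ftl1, the ferritin light chain, had 15373 and 14530 CPM in the S100A4-11 and IgG libraries. Of all genes with at least 20 UMIs, 1.12% were higher and 5.04% lower, and 55.8% had a ratio below 1. Of 24 glycolysis and hypoxia genes, 18 had a ratio above 1 and 1 was past 1.5-fold, with a median of 0.10. That member was Ndrg1, a stress-induced gene, lower at 5.64 CPM in the S100A4-11 library and 10.2 CPM in the IgG library; with at least 4 markers its ratio was 0.590 (0.323 to 1.03). Gapdh had 678 CPM in the S100A4-11 library and 583 CPM in the IgG library, a ratio of 1.16 (1.10 to 1.22).

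**Figure D3:**
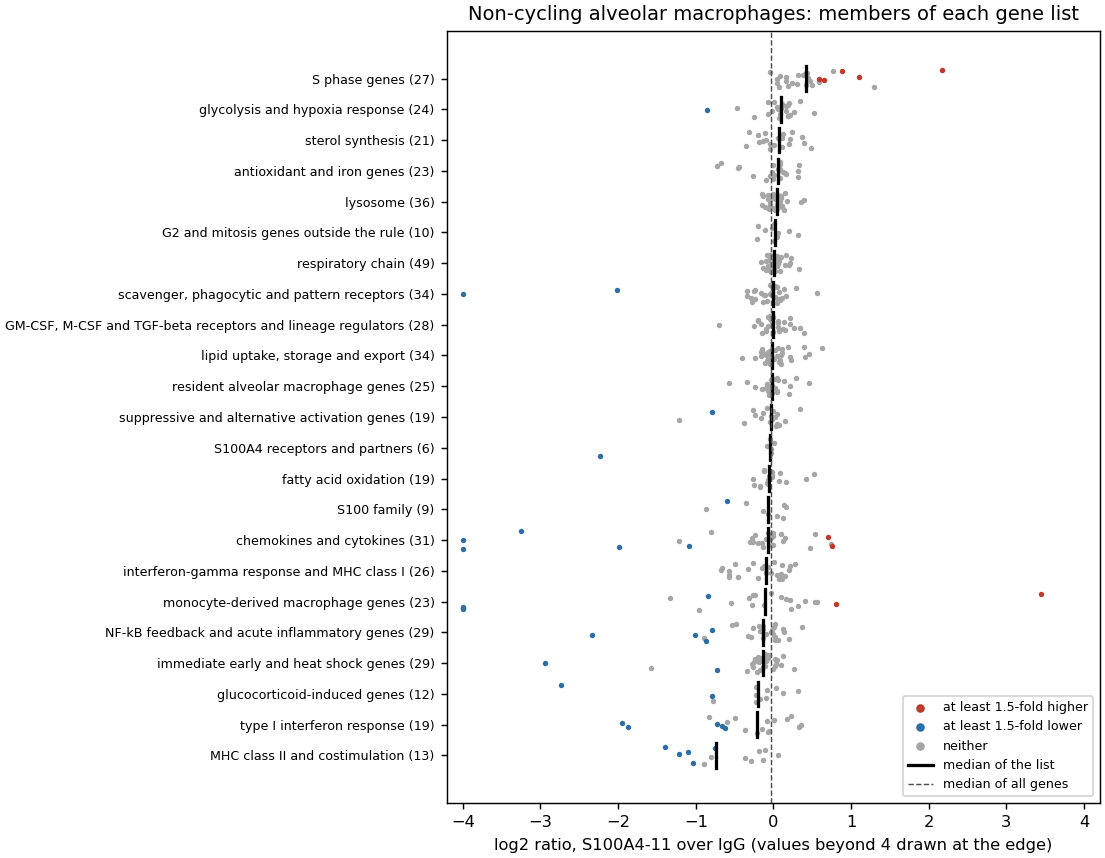
Log2 ratio of S100A4-11 over IgG for each member of the 23 gene lists with at least 20 UMIs in non-cycling alveolar macrophages, with the number of members in brackets, the list median as a black bar and the median of all genes as a dashed line. The MHC class II and costimulation list has the lowest median (-0.74) and the S phase list the highest (0.42). All other medians lie between -0.21 and 0.10.

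Members of the chemokine and cytokine list went both ways, 23 with a ratio below 1 and 8 with a ratio above 1. Of all genes with at least 20 UMIs, 55.8% had a ratio below 1. Of 31 measured, 2 were higher and 5 lower, with a median of -0.07, beside 1.12% higher and 5.04% lower of all genes with at least 20 UMIs. Cxcl2, a neutrophil chemokine, had 4011 CPM (3947 to 4076) in the S100A4-11 library and 4817 CPM (4759 to 4874) in the IgG library, a ratio of 0.833 (0.816 to 0.850). Tnf had 445 and 467 CPM in the S100A4-11 and IgG libraries, and Il1a had 274 and 331 CPM. Il1b had the opposite order, with 1397 CPM in the S100A4-11 library and 1257 CPM in the IgG library. Summed over Cxcl1, Cxcl2, Ccl3, Ccl4, Tnf, Il1a and Il1b, the cells ranged widely within a library: the median cell had 3634 CPM in the S100A4-11 library and 4750 CPM in the IgG library, and the highest had 47288 and 56238 CPM.

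Ccl4, a chemokine that attracts monocytes and T cells, was lower, with 80.3 CPM (71.5 to 89.9) in the S100A4-11 library and 171 CPM (160 to 182) in the IgG library, a ratio of 0.470 (0.412 to 0.536). It was found in 11.6% and 12.3% of the cells, with 47.5% and 48.1% of the UMIs in 5 cells; in neutrophils Ccl4 stood at 837 and 953 CPM. Il6 was higher, with 41.6 CPM (35.3 to 48.7) in the S100A4-11 library and 25.7 CPM (21.6 to 30.2) in the IgG library, a ratio of 1.62 (1.28 to 2.05), in 12.3% and 8.85% of the cells. With every cell weighing the same the Il6 ratio was 1.25. The interval of the summed UMIs, moved to this ratio, ran from 0.992 to 1.58 and does not cover spread between cells. Ccl5, the other member that passed upward, had 93.2% of its S100A4-11 UMIs in 5 cells, and without the 5 cells with most in each library its ratio was 0.950. Of 29 NF-kB feedback and acute inflammatory genes none was higher and 4 were lower (median -0.13). Of all genes with at least 20 UMIs, 1.12% were higher and 5.04% lower. Tnfaip2, a TNF-induced gene, had 717 and 555 CPM in the S100A4-11 and IgG libraries, a ratio of 1.29 (1.23 to 1.36). The lower members were Ptgs2, Acod1, Marcksl1 and Lcn2; without members that met another class the ratio of Acod1 was 1.03 and that of Marcksl1 0.805.

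MHC class II genes, which alveolar macrophages hold at low level, were lower in the S100A4-11 library. Of 13 measured genes of MHC class II and costimulation, 5 were lower, none was higher, and the median was -0.74. The lower ones were H2-Aa, H2-Ab1, H2-Eb1, Cd74 and H2-DMb2. The list also holds Cd80, Cd86, Cd40, Cd83 and Ctss, which are not MHC class II genes. The share of lower genes among all with at least 20 UMIs was 5.04%. Cd74, the invariant chain, had 360 CPM (341 to 379) in the S100A4-11 library and 735 CPM (713 to 758) in the IgG library, and was found in 34.3% and 39.0% of the cells. In neutrophils it was found in 11.0% and 15.7% of barcodes, and dendritic cells held 23702 and 27104 CPM. H2-Aa had 119 CPM (108 to 131) in the S100A4-11 library and 276 CPM (262 to 290) in the IgG library. Summed over H2-Aa, H2-Ab1, H2-Eb1 and Cd74 the level was 613 CPM in the S100A4-11 library and 1324 CPM in the IgG library, 2.16-fold lower (2.06 to 2.27). The UMIs were concentrated, with 54.5% of them in 5 cells of the S100A4-11 library and 45.8% in 5 cells of the IgG library. More cells had at least 1 such UMI in the IgG library, 47.9% against 39.9% in the S100A4-11 library. Among non-cycling members, 1 in the S100A4-11 library and 5 in the IgG library also met the dendritic cell minimum. Without members that met any other class the summed level was 595 CPM in the S100A4-11 library and 741 CPM in the IgG library. That is a ratio of 0.804 (0.762 to 0.848), so the 1.5-fold difference did not hold without these members. It did hold without the 5 cells with most in each library, at 284 and 731 CPM, a ratio of 0.389 (0.363 to 0.417). Without members called doublets by Scrublet the ratio of Cd74 was 0.391 (0.363 to 0.420). Over all other barcodes the median of the list was 0.19.

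**Figure D4:**
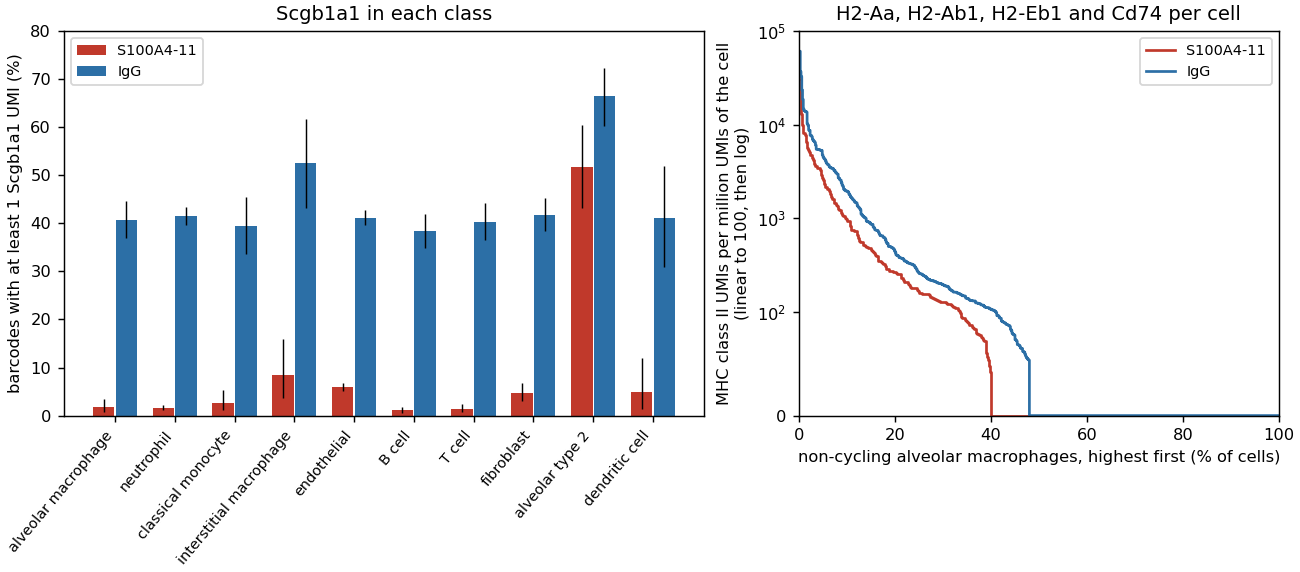
Left, share of barcodes with at least 1 Scgb1a1 UMI in alveolar macrophages and 9 other classes of the S100A4-11 and IgG libraries, with exact binomial intervals; right, MHC class II level (4 genes, CPM) of each non-cycling alveolar macrophage, sorted from the highest cell. Scgb1a1 shares in alveolar macrophages (1.69% and 40.8%) were close to those of neutrophils, and MHC class II UMIs were absent from most cells and high in a few.

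Interferon-response lists had medians below 0. Of 19 measured type I interferon response genes, none was higher and 5 were lower (Ifit1, Isg15, Oasl1, Rtp4 and Ifih1), with a median of -0.21. Among all genes with at least 20 UMIs, 1.12% were higher and 5.04% lower. Isg15, a ubiquitin-like modifier, had 16.4 CPM (12.5 to 21.0) in the S100A4-11 library and 26.0 CPM (22.0 to 30.6) in the IgG library, with 47.5% of its S100A4-11 UMIs in 5 cells. Without members that met another class its ratio was 0.741 (0.527 to 1.03). Oasl1, with 24 UMIs in the S100A4-11 library and 60 in the IgG library, had a ratio of 0.603 (0.359 to 0.982), and without the 5 cells with most in each library 0.533 (0.172 to 1.42). It was past 1.5-fold in 7 of 11 settings, the reported one included. Of 26 interferon-gamma response and MHC class I genes none was past 1.5-fold (median -0.09), and H2-D1 had 1588 and 1490 CPM in the S100A4-11 and IgG libraries. The 29 immediate early and heat shock genes had a median of -0.14, with 22 ratios below 1, none higher and 2 lower. Dnajb1, an inducible Hsp40 co-chaperone, had 60.2 CPM (52.5 to 68.6) in the S100A4-11 library and 100 CPM (91.9 to 109) in the IgG library, a ratio of 0.602 (0.513 to 0.704), and without members that met another class 0.702. Hspa8, the constitutive Hsc70 chaperone, had 1854 and 2245 CPM in the S100A4-11 and IgG libraries, a ratio of 0.826 (0.802 to 0.851). Hspb1 was lower, with 93.3% of its 15 S100A4-11 UMIs in 5 cells and a ratio of 0.131, against 0.328 without members that met another class. Of 12 glucocorticoid-induced genes 2 were lower, Fkbp5 and Zbtb16 (median -0.20). Zbtb16 had 11 UMIs in the S100A4-11 library and 110 in the IgG library, and its ratio over all other barcodes was 0.454.

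Few receptor and activation genes were past 1.5-fold, where 1.12% of all genes with at least 20 UMIs were higher and 5.04% lower. Of 34 scavenger, phagocytic and pattern receptor genes 2 were lower, Mfge8 and Gas6, which encode bridging molecules for apoptotic cells, and the median was -0.01. Mfge8 had 10 UMIs in the S100A4-11 library and 61 in the IgG library, and Gas6 had 1 and 37 UMIs. Mrc1, the mannose receptor, had 926 and 845 CPM in the S100A4-11 and IgG libraries, and Cd14, the lipopolysaccharide co-receptor, 439 and 533 CPM. Of 19 suppressive and alternative activation genes 1, Ptgs2, was lower, at 12.1 CPM in the S100A4-11 library and 20.9 CPM in the IgG library (median -0.03), and at 0.712 (0.464 to 1.07) as a ratio without members that met another class. Of 23 genes of monocyte-derived macrophages 2 were higher, F13a1 and Vcan, and 4 lower, C1qa, C1qb, C1qc and Tmem176a, with a median of -0.11. C1qa had 2 UMIs in the S100A4-11 library and 78 in the IgG library, and Vcan had 29 and 4. These UMIs lay in few cells, 1.11% of the cells for C1qa in the IgG library and 2.42% for Vcan in the S100A4-11 library. Gpnmb, a lysosomal membrane glycoprotein of the same list, had 165 CPM (152 to 179) in the S100A4-11 library and 114 CPM (106 to 124) in the IgG library, a ratio of 1.44 (1.29 to 1.61), short of 1.5-fold. It was found in 38.2% and 28.6% of the cells.

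S100a4 (chromosome 3, 90603771 to 90606045, plus strand), which encodes the antibody's target, was found in few of these cells. It had 18.8 CPM (14.7 to 23.8) in the S100A4-11 library and 16.8 CPM (13.5 to 20.5) in the IgG library, a ratio of 1.12 (0.811 to 1.55). It was found in 3.14% (1.68 to 5.31) and 3.63% (2.32 to 5.40) of non-cycling cells, and after thinning to 2000 UMIs in 1.71% and 0.952%. Of its UMIs, 5 cells held 72.9% in the S100A4-11 library and 47.9% in the IgG library. The order of the libraries turned with the cells kept: without members that met another class S100a4 had 5.36 CPM (3.23 to 8.38) in the S100A4-11 library and 11.9 CPM (9.13 to 15.3) in the IgG library, a ratio of 0.449 (0.254 to 0.763). Without the 5 cells with most in each library the ratio was 0.592 (0.329 to 1.02). In B cells, at median depths of 2886 and 2945 UMIs, it was found in 1.92% and 2.52% of barcodes, at 15.3 and 20.2 CPM. In classical monocytes it was found in 98.7% and 97.4%, at 978 and 971 CPM. Of 9 measured S100 genes none was higher and 1, S100a9, was lower (median -0.07), at 94.3 CPM in the S100A4-11 library and 142 CPM in the IgG library; the cell rule limits this gene, and without members that met another class its ratio was 1.18. S100a11 had 1516 and 1587 CPM and S100a1 476 and 435 CPM in the S100A4-11 and IgG libraries. Among all genes with at least 20 UMIs, 1.12% were higher and 5.04% lower. Of 6 genes for receptors and partners of S100A4, 1 was lower (median -0.04). That was Ager, which encodes RAGE and is a marker of type 1 alveolar cells, with 9 UMIs in the S100A4-11 library and 64 in the IgG library; without members that met another class its ratio was 0.433 (0.142 to 1.12), against 0.212 with them. Cd44 had 1460 and 1546 CPM, Anxa2 1347 and 1383 CPM and Myh9 826 and 825 CPM in the S100A4-11 and IgG libraries.

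Markers of other cells differed between the libraries, not always in the direction seen over all other barcodes. The 6 alveolar type 2 markers summed to 37.9 CPM in alveolar macrophages of the S100A4-11 library, with 1 of the 6 at 0, and to 1312 CPM in those of the IgG library, with none at 0. Sftpc, surfactant protein C, had 29.5 CPM in the S100A4-11 library and 1094 CPM in the IgG library, where 5 cells held 90.8% of its UMIs. Without the 5 cells with most in each library it had 26.3 and 102 CPM. It was found in 22.9% and 56.9% of alveolar macrophages and in 23.1% and 52.9% of neutrophils, at median depths as above. The 5 fibroblast markers summed to 18.3 and 88.8 CPM, the 5 neutrophil markers to 180 and 259 CPM and the 7 interstitial macrophage markers to 5.64 and 42.4 CPM in the S100A4-11 and IgG libraries. The 5 classical monocyte markers summed to 59.1 and 38.5 CPM, and the 6 dendritic cell markers to 12.4 and 15.5 CPM. Endothelial markers summed to 53.2 and 73.6 CPM, NK cell markers to 67.9 and 61.0 CPM and red cell markers to 61.5 and 88.8 CPM. The cell rule bears on 2 of these sums. It holds Cdh5, an endothelial marker, at 0 and limits the neutrophil markers S100a8 and S100a9. In the neutrophil sum S100a8 held 57.5 and 73.6 CPM and S100a9 held 94.3 and 142 CPM in the S100A4-11 and IgG libraries. The ratio of sums was 0.797 in alveolar macrophages and 1.42 over all other barcodes for dendritic cell markers, and 0.693 and 1.89 for red cell markers. For fibroblast markers these ratios were 0.206 and 0.677, and for classical monocyte markers 1.53 and 1.19. The part of these RNAs in the lower genes above was not tested.

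Nearly all genes of S phase had ratios above 1 in the cells called non-cycling. The cycling call reads 11 mitotic genes and none of this list, so cells in S phase can be among the non-cycling ones. Of 27 measured S phase genes, 26 had a ratio above 1, and the median was 0.42. In the list 5 were higher (Mcm2, Mcm3, Mcm6, Tyms and Ung) and none was lower, beside 1.12% and 5.04% of all genes with at least 20 UMIs. Mcm6 (chromosome 1, 128331590 to 128359664, minus strand), a subunit of the replicative helicase, had 16.1 CPM (12.3 to 20.7) in the S100A4-11 library and 7.49 CPM (5.40 to 10.1) in the IgG library, a ratio of 2.15 (1.43 to 3.27), found in 8.94% and 6.32% of the cells. Tyms, thymidylate synthase, had 10.5 CPM in the S100A4-11 library and 5.70 CPM in the IgG library, a ratio of 1.84 (1.12 to 3.03), and without the 5 cells with most in each library 1.76 (0.994 to 3.13). With every cell weighing the same the ratios of Mcm2 and Mcm3 were 1.44 and 1.20, short of 1.5-fold. The list summed to 473 CPM (451 to 495) in the S100A4-11 library and 372 CPM (356 to 389) in the IgG library, a ratio of 1.27 (1.19 to 1.35). Without the 5 cells with most in each library the ratio was 1.15 (1.07 to 1.23), and 1 cell of the S100A4-11 library had UMIs of 30 of the genes, against at most 15 in any cell of the IgG library. After thinning, 5.61% (3.59 to 8.30) of cells in the S100A4-11 library and 4.29% (2.84 to 6.17) in the IgG library had at least 3 S phase genes, intervals that overlap. The 10 measured genes of G2 and mitosis outside the rule had a median of 0.02, with none past 1.5-fold.

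Alveolar macrophages called cycling were few in both libraries, by a call that can miss cells in S phase. They were 2.59% (1.30 to 4.58) of alveolar macrophages in the S100A4-11 library and 4.52% (3.07 to 6.40) in the IgG library, a ratio of 0.572 (0.259 to 1.17). The interval includes 1, and after thinning to 2000 UMIs the shares were 2.14% and 2.28%. Just inside the minimum, 1 cell in each library had exactly 4 of the 11 genes; just outside it, 7 cells of the S100A4-11 library and 4 of the IgG library had exactly 3. Among other barcodes with a Ptprc UMI the shares were 0.472% and 0.675%. In both libraries alveolar macrophages thus held a larger share of cycling cells than other Ptprc barcodes, at a greater depth per cell.

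In each library 19 of 25 measured resident genes stood at a lower level in cycling than in non-cycling cells and 6 at a higher one. They had median log2 ratios of cycling over non-cycling cells of -0.32 in the S100A4-11 library and -0.42 in the IgG library, where all genes had 0.23 and 0.19. Plet1 stood at 887 CPM in cycling cells and 1375 CPM in non-cycling cells of the S100A4-11 library, and at 675 and 1408 CPM in those of the IgG library. Chil3 stood at 2014 CPM in cycling cells and 2057 CPM in non-cycling cells of the S100A4-11 library, and at 2043 and 1995 CPM in those of the IgG library. Car4, a carbonic anhydrase, stood at 139 CPM in cycling cells and 453 CPM in non-cycling cells of the S100A4-11 library, and at 193 and 395 CPM in those of the IgG library. Ctsk, cathepsin K, stood at 1019.7 CPM in cycling cells and 219.7 CPM in non-cycling cells of the S100A4-11 library, a ratio of 4.64 (3.90 to 5.50), and at 439 and 226 CPM in those of the IgG library, a ratio of 1.94 (1.63 to 2.29). In the S100A4-11 library 1 of the 11 cycling cells held 44.7% of its UMIs. The MHC class II and costimulation list had medians of -1.70 and -1.45. Genes of mitosis outside the rule, whose direction the choice of cells fixes, had medians of 5.70 and 6.69. Hmgb2, a chromatin protein of dividing cells, stood at 1121 CPM in cycling cells and 104 CPM in non-cycling cells of the S100A4-11 library, and at 1408 and 99.8 CPM in those of the IgG library.

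**Figure D5:**
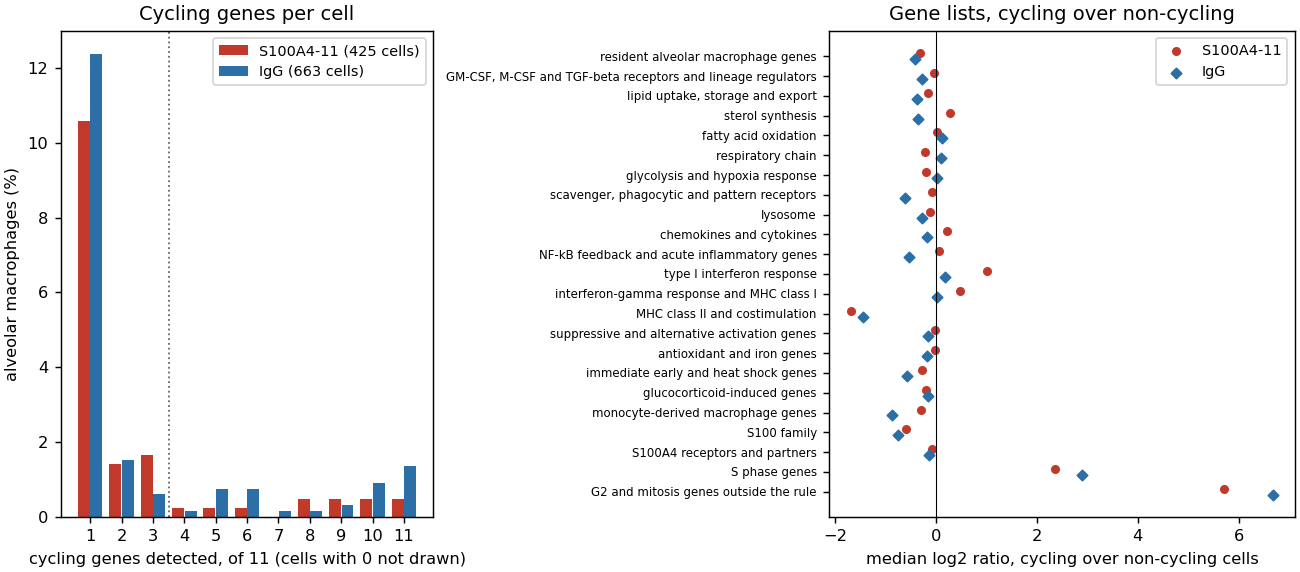
Left, percentage of alveolar macrophages by the number of the 11 cycling genes detected, from 1 to 11, in the S100A4-11 (425 cells) and IgG (663 cells) libraries, with the dotted line at the minimum of 4; right, median log2 ratio of cycling over non-cycling cells for each of the 23 gene lists in each library. The S phase and mitosis lists have the highest medians and the MHC class II and costimulation list the lowest in each library.

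Between the libraries, the genes of cycling cells that ranked highest and lowest rested on very few cells. Ccl4 had 583 UMIs in the 11 cycling cells of the S100A4-11 library and 3 in the 30 of the IgG library, and 1 cell held 98.6% of the S100A4-11 UMIs. Oasl1 had 89 UMIs in the S100A4-11 library and 1 in the IgG library, and Isg15 had 58 and 10, with all of the S100A4-11 UMIs of each in 1 cell. Cxcl10 had 101 and 5 UMIs, 94.1% of the S100A4-11 UMIs in 1 cell. Hist1h1d and Hist1h1b, replication-dependent linker histones, were lower in the S100A4-11 library, with 12.7 and 44.3 CPM, against 193 and 179 CPM in the IgG library. Gadd45g, a growth arrest and stress gene, had 82.3 CPM in the S100A4-11 library and 280 CPM in the IgG library, where 1 cell held 49.0% of its UMIs. Cers6, a ceramide synthase, had 95 and 277 CPM, with 66.7% of the IgG UMIs in 1 cell.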

How the data were processed

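The deposited matrices hold raw UMI counts of each gene in each barcode, with 1 lung library a group. Per the labels' protocols the cells were captured with the 10x Genomics 5' V2 kit; per the file headers and the submitters' processing notes the authors used Cell Ranger 7.1.0 and build mm10. The protocol text names tumour tissue while the sample labels say lung, and the libraries were read as lung. The members and gene lists were chosen with earlier results of these data known.

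Barcodes were selected by the rule in the report and UMIs were summed over cells in each library (Python 3.11.15, numpy 2.4.6, scipy 1.17.1, pandas 2.3.3). Ratios of single genes and of summed lists compare shares of these sums, with no pseudocount, as do the points drawn for single genes. Between the libraries, the log2 ratios of alveolar macrophages behind medians, percentiles and counts above or below 1 had a pseudocount. It was a fixed fraction of a UMI added to each sum. The 9 other classes were cut by marker genes, alveolar macrophages removed. No correction for free RNA was made, and doublets were handled by the rule, with Scrublet (scanpy 1.11.5) as an alternative: it called 9 members in the S100A4-11 library and 23 in the IgG library. The interval script was tested on simulated data. These had Poisson spread only, which the intervals assume, so the test does not cover UMIs that cluster in few cells.

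To be named, a gene needed 50 CPM and 50 UMIs or more in 1 library, and there no less than 20% of its CPM in whichever other class held most of it. Mitochondrial, ribosomal protein, haemoglobin and antigen receptor segment genes were left out. Genes past 1.5-fold were ranked by the interval bound nearest 1, with up to 12 each way, plus up to 4 examples per list, the markers and S100a4. In cycling cells 4 each way were named. Of 104 genes looked up by ID in GENCODE M21 (GRCm38), 104 were found. Alternatives were other cell rules, scalings, filters, equal weight per cell, and leaving out the 5 cells with most UMIs of a gene. Results for a few genes are not reported here.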

Additional observations from a re-analysis of the deposited data

How the results depend on the processing

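No paired analysis was possible because each group had 1 library, and for the same reason no library could be left out. Of 268 values that summarise a comparison under an alternative, 263 stayed within their bounds or within 1.5 times the count. The bounds were counting intervals for shares, and for list medians the medians of the members' interval bounds. Every list median stayed within these bounds. They are wide, as for MHC class II and costimulation (-1.12 to -0.02), so a median can move far and still lie inside them. The counts of genes past 1.5-fold moved with the filter: 172 higher and 733 lower with no filter, and 7 higher and 27 lower at 300 UMIs or more, as fewer genes were counted. Without members that met another class, chosen after seeing the data, 73 were lower. Of gene ratios past 1.5-fold, those that changed side were Acod1 (1.15 with S100a8 and S100a9 under 0.3% of UMIs, 1.03 without members that met another class), Tmem176a (1.71) and S100a9 (1.18) without those members, and Ccl5 (0.950) without the 5 cells with most; the cause was not tested. S100a4 (1.12) ranged from 0.449 to 1.31 and S100a6 (1.09) from 0.771 to 1.25, on both sides of 1. Pde1c ranged from 1.83 to 1.93, Nkain2 from 1.77 to 1.8, Polr2l from 1.59 to 1.66, Fkbp5 from 0.552 to 0.588, Ifih1 from 0.628 to 0.750, Lpl from 1.33 to 1.40 and Cd74 from 0.391 to 0.761. Intervals are wide for genes with few UMIs, and no value has a replicate check.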
